A study of Mus musculus with 32 samples.

Results

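Acta2, Actg2, Tagln, Cnn1, Cnn2, Myl9, Tpm1, Tpm2 and Des are 9 of the 19938 genes measured in this series of mouse brain tumour cultures. They were chosen by name as genes of the smooth muscle contractile apparatus, but with earlier results of these data known. Their directions are therefore not independent support. Acta2 was included because smooth muscle actin is a histological marker of rhabdoid tumours. All 9 were measured, each by 1 probe set. In smooth muscle, actin filaments wrapped in tropomyosin slide along myosin when the regulatory light chain of myosin is phosphorylated, and calponin and transgelin bind the filaments. Many of these genes are switched on by serum response factor (SRF), which binds a DNA element called the CArG box together with myocardin or with the myocardin-related factors that answer to actin assembly. In the brain Acta2 and Myh11 normally mark the mural cells of vessels, whereas tropomyosins and Cnn2 also serve the stress fibres of non-muscle cells, and desmin is shared by smooth, cardiac and skeletal muscle.

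RNA came from 32 sphere cultures, 1 Affymetrix Mouse Gene 1.0 ST array each, grown from brain tumours that arose after transplantation of p53-deficient neurosphere cells (strain B6;129-Trp53tm1Brd), which had been taken from the wall of the lateral ventricle after birth. Before culture, cells still carrying the transgene and its fluorescent marker were sorted by flow cytometry. How far this removed host cells that lack the marker was not tested. In 2 consecutive designs a secondary tumour arose after MYC was added to glioma-derived sphere cells that overexpressed HRAS (HRAS then MYC, n = 2) or after HRAS was added to sphere cells from a primitive neuroectodermal tumour (PNET) that overexpressed MYC (MYC then HRAS, n = 2). The other groups overexpressed HRAS and MYC together (n = 7, tumours labelled as resembling atypical teratoid/rhabdoid tumours, AT/RT), HRAS and Bmi1 (n = 2, glioma), HRAS alone (n = 5, glioma), MYC and Ezh2 (n = 5, PNET), MYC and Bmi1 (n = 3, PNET) or MYC alone (n = 6, PNET). All 8 groups lack normal p53, and no culture without an added oncogene was used here. HRAS is a small GTPase of the MAP kinase pathway, MYC a growth-promoting transcription factor, and Ezh2 and Bmi1 are Polycomb subunits. Whether replicates are separate tumours, animals or cultures is not in the labels; the p-values rest on the spread between arrays alone, and that spread may be technical. Levels below are log2 values after the robust multi-array average (RMA), a difference is a difference of 2 mean log2 values, and a gene was called at a limma adjusted p under 0.05 over all genes.

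The upstream sequences of 4 members are shown because Cnn2 and Tpm2 best separated cultures with and without HRAS, and Myl9 and Des were highest in HRAS+Bmi1 cultures. They come from RefSeq, build GRCm38.p6, and stop at the annotated gene start or at the first base of the gene's longest record. Capitals mark a CArG box (Cnn2 and Myl9) or an E-box, CANNTG, the element bound by MyoD and other helix-loop-helix factors (Cnn2, Tpm2 and Des). The regions are chr10:79988350-79988599 on the plus strand for Cnn2, chr4:43523584-43523804 on the minus strand for Tpm2, chr2:156775214-156775407 on the plus strand for Myl9 and chr1:75360042-75360291 on the plus strand for Des.
Cnn2: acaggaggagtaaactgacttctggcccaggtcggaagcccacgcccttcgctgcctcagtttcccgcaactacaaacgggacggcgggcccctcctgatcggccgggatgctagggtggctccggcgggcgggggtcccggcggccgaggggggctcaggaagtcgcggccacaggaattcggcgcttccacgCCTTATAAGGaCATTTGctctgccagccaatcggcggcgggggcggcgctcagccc
Tpm2: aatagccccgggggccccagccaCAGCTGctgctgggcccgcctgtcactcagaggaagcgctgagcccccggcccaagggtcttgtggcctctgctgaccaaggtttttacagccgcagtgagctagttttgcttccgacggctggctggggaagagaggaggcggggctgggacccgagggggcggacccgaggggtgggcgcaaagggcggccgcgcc
Myl9: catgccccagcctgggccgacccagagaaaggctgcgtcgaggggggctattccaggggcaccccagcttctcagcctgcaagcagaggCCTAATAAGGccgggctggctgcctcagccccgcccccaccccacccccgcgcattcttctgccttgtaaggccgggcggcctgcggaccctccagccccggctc
Des: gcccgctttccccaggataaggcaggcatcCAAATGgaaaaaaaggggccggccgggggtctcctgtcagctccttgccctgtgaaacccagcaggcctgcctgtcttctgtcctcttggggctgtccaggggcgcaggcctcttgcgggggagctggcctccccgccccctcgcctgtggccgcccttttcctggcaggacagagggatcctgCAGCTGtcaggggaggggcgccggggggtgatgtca
The 250 bases before the gene start were searched on both strands. Of the 7 members with an entry 2 held a CArG box, Cnn2 and Myl9, against 1.47% of all 32851 promoters. Only CC, 6 bases of A or T and then GG counted as a CArG box, so boxes that depart from this were not sought. An E-box was found in 6 of the 7, a common word that 66.22% of promoters held, and in Cnn2 it lay just downstream of the CArG box without overlapping it. The MCAT element, CATTCC, occurred in Tpm1 and Acta2 and in 12.64% of promoters. These matches are letters in a window and not measured binding.

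Arrays of 1 group correlated at r = 0.9461 or more over all probe sets, and array medians lay between 5.59 and 5.79. Nes, an intermediate filament of neural stem cells, was at 8.27 to 11.75 across the groups. MYC replicates 4 and 5 stood apart in the mean of 5 neural stem and progenitor markers, at 6.77 and 7.36 against 9.62 to 10.15 in the other MYC arrays, and results that involve MYC were recomputed without both.

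**Figure D1:**
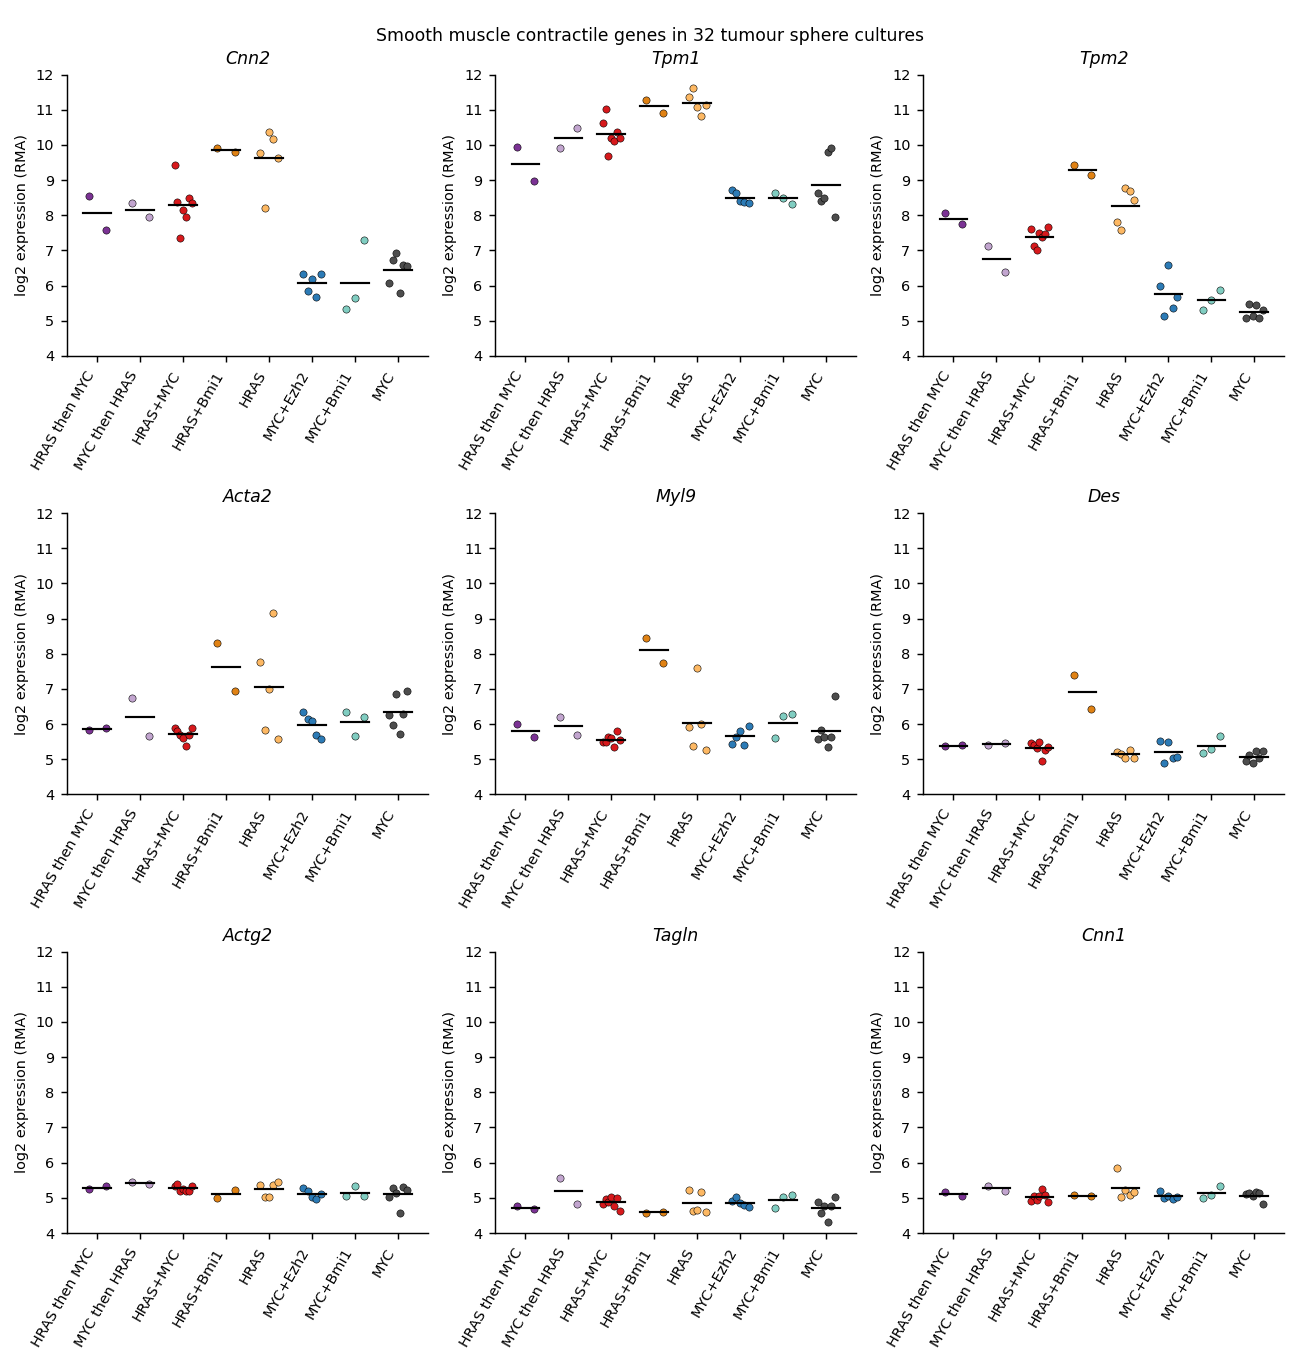
Log2 expression of the 9 contractile genes in each of the 32 arrays, by group; points are arrays and bars are group means, on 1 common scale. Cnn2, Tpm1 and Tpm2 have higher means in the 5 groups with HRAS than in the others, with some overlap of arrays for Tpm1 and Tpm2. Myl9 and Des are highest in HRAS+Bmi1, Acta2 spreads from 5.57 to 9.15 within HRAS, and Actg2, Tagln and Cnn1 change little.

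Across the series the 9 genes fell into 3 patterns. Cnn2, Tpm1 and Tpm2 had a higher mean in every group with HRAS than in any group without it. Des and Myl9 were highest in the 2 HRAS+Bmi1 arrays, Myl9 with further high arrays in HRAS and MYC. Acta2 was highest in both HRAS+Bmi1 arrays and in 3 of the 5 HRAS arrays. Of these, HRAS+Bmi1 replicate 2 was level with MYC replicate 6, both at 6.96. For Acta2, MYC replicate 3 was at 6.85 and MYC then HRAS replicate 1 at 6.75. Actg2, Tagln and Cnn1 spanned no more than 1.26 log2 units over all 32 arrays. Cnn2, an actin-binding calponin, ran from 7.37 to 10.36 in the 18 arrays with HRAS and from 5.32 to 7.29 in the 14 without, so that the ranges did not meet. For Tpm2, beta-tropomyosin, 17 of the 18 arrays with HRAS lay above all 14 without, and for Tpm1, alpha-tropomyosin, 16 did. Over the 32 arrays, which share their groups, Pearson's r was 0.91 between Cnn2 and Tpm2, 0.85 between Cnn2 and Tpm1, 0.80 between Tpm1 and Tpm2 and 0.71 between Myl9 and Des. In bulk cultures such as these, fewer cells of a type and less RNA per cell cannot be told apart.

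The comparison of HRAS with MYC cultures sets the glioma against the PNET model, each raised with 1 oncogene. Of the 9 genes, 3 rose in HRAS cultures and none fell, against 15.4% of all genes called higher and 18.0% called lower. In either direction 33.4% of all genes were called. The members' median difference was 0.22, and that of all genes −0.03. Cnn2 was at 9.78, 8.19, 10.36, 10.16 and 9.64 in the HRAS arrays, against a lowest of 5.79, a median of 6.57 and a highest of 6.91 in the 6 MYC arrays. Every HRAS array lay above every MYC array, and the difference was 3.18 ± 0.36 (SE), or 9.08-fold (adjusted p 5.88e-08). Tpm2 was at 7.80, 7.59, 8.79, 8.70 and 8.43 in HRAS arrays, against 5.07, 5.22 and 5.48 (lowest, median, highest) in MYC arrays. These groups did not overlap either, with a difference of 3.01 ± 0.22 or 8.04-fold (adjusted p 2.54e-11). Tpm1 was at 11.36, 11.62, 11.07, 10.82 and 11.14 in HRAS arrays, against 7.96, 8.56 and 9.90 in MYC arrays. Again no HRAS array fell within the MYC range, and the difference was 2.34 ± 0.28 or 5.06-fold (adjusted p 1.38e-07). The 2 highest MYC arrays for Tpm1 were replicates 4 and 5, and without both the difference was 2.83.

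Acta2, smooth muscle alpha-actin, was the member with the widest spread inside a group. It was at 7.77, 5.84, 7.01, 9.15 and 5.57 in HRAS arrays, against 5.72, 6.28 and 6.96 in MYC arrays. In HRAS, 3 arrays were above all MYC arrays and 2 were within or below their range. Acta2 differed by 0.73 ± 0.41 (adjusted p 0.189, not called), and this turned on single HRAS arrays: it was 0.21 without HRAS replicate 4 (adjusted p 0.715) and 1.10 without HRAS replicate 5, where it passed (adjusted p 0.0323). Myl9, the regulatory light chain of smooth and non-muscle myosin, was at 5.91, 5.39, 7.59, 6.00 and 5.26 in HRAS arrays, against 5.36, 5.64 and 6.81 in MYC arrays, with 1 high array in each group. Myl9 differed by 0.22 ± 0.28 (adjusted p 0.623, not called), or by −0.17 without HRAS replicate 3. The differences of Des, Actg2, Tagln and Cnn1 lay between 0.07 and 0.21 and did not pass (adjusted p 0.156 to 0.784).

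The other genes of the contractile apparatus showed how far this went beyond the members. Of 23 such genes, 16 were higher and 1 lower in HRAS than in MYC cultures, with a median difference of 1.23. Lpp, a LIM protein of focal adhesions, differed by 3.08 ± 0.34, alpha-actinin 1 (Actn1) by 2.71 ± 0.20, the non-muscle myosin heavy chain Myh9 by 2.23 ± 0.19 and vinculin (Vcl) by 2.20 ± 0.28. Myh11, the heavy chain of differentiated smooth muscle, was at −0.03 ± 0.08 (adjusted p 0.811), and myosin light chain kinase (Mylk) at 0.04 ± 0.11 (adjusted p 0.843). Of 12 genes of the SRF and myocardin family and their partners, 5 were higher and 1 lower, among them Mrtfa at 1.00 ± 0.11 (adjusted p 4.05e-08), which encodes a myocardin-related factor. Srf itself was at 0.14 ± 0.15 (adjusted p 0.553) and Myocd at −0.02 ± 0.09 (adjusted p 0.895). The LIM protein genes Fhl2 and Csrp2 both rose by 2.10, and Fhl1 fell by 1.34. Of 9 TGF-beta genes, 6 were higher and 1 lower: the ligands Tgfb1 and Tgfb3 rose by 3.57 and 2.72 and the receptor Tgfbr2 by 2.81, while the receptor Tgfbr1 fell by 1.23. Of 3 further actins only Actb was called, at 0.28 ± 0.07.

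**Figure D2:**
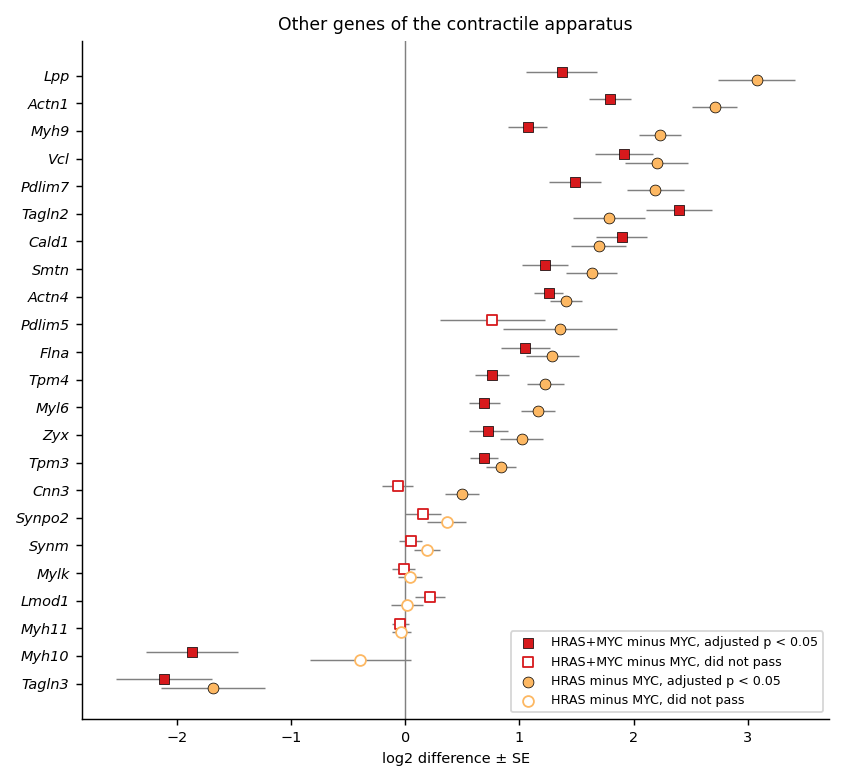
Log2 differences with standard errors for 23 other genes of the contractile apparatus, squares for HRAS+MYC minus MYC and circles for HRAS minus MYC; filled symbols passed. In HRAS minus MYC 16 genes are filled to the right and Tagln3 to the left; Myh11, Mylk and Lmod1 lie near 0 and are open in both comparisons.

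Markers of other cell types were read in the same arrays. The mean over 8 mural cell markers was 5.61 to 6.07 in HRAS arrays, against 5.10 to 5.57 in MYC arrays, and 3 of the 8 were called higher. Those called were Anpep at 2.14 ± 0.32, Rgs5 at 0.85 ± 0.21 and Notch3 at 0.51 ± 0.16. Myh11, another of the 8, was at 5.42 to 5.77 in HRAS arrays, against 5.45 to 5.95 in MYC arrays. The mean over 6 fibroblast markers was 6.22 to 6.97 in HRAS arrays, against 5.34 to 6.04 in MYC arrays, with 2 called higher; the collagen gene Col3a1 was at 8.03 to 10.35 in HRAS arrays, against 5.72 to 7.09 in MYC arrays. Of 5 endothelial markers Tek was called higher, and of 5 microglial markers Itgam was called lower, a call lost when HRAS replicate 3 or 5 (adjusted p 0.119 and 0.0987) or MYC replicate 4 or 5 (0.0842 and 0.125) was left out. The part of other cell types in the members' differences was not tested.

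HRAS+MYC cultures, the AT/RT-like model, were also set against MYC cultures. Of the 9 genes 3, again Cnn2, Tpm1 and Tpm2, rose and none fell, against 15.8% of all genes called higher and 18.4% called lower (median difference 0.17 for the members and 0.03 for all genes). In either direction 34.2% of all genes were called. This comparison and that of HRAS with MYC use the same MYC arrays. Cnn2 had a lowest of 7.37, a median of 8.34 and a highest of 9.42 in the 7 HRAS+MYC arrays, above every MYC array, and the difference from MYC was 1.86 ± 0.33 or 3.62-fold (adjusted p 4.92e-05). Tpm2 was at 7.02, 7.47 and 7.66 (lowest, median, highest) in HRAS+MYC arrays, also without overlap, and differed by 2.14 ± 0.20 or 4.40-fold (adjusted p 2.63e-09). Tpm1 was at 9.68, 10.21 and 11.02 in HRAS+MYC arrays, where it overlapped MYC replicates 4 and 5. It differed by 1.45 ± 0.25 or 2.74-fold (adjusted p 4.26e-05), and by 1.94 without those MYC arrays.

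Acta2, the histological marker, was not higher in the AT/RT-like cultures. It was at 5.38, 5.70 and 5.90 in the 7 HRAS+MYC arrays, the lowest group mean of the series, against 5.72, 6.28 and 6.96 in the 6 MYC arrays. Only the upper end of HRAS+MYC met the lower end of MYC. The difference was −0.63 ± 0.37 and did not pass (adjusted p 0.206); a fit of these 2 groups alone gave adjusted p 0.0171. The remaining 5 members differed by −0.24 to 0.25 and did not pass (adjusted p 0.146 to 0.756).

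Of the 23 other contractile genes, 14 were higher and 2 lower in HRAS+MYC than in MYC cultures, with a median difference of 0.76. The transgelin paralogue Tagln2 rose by 2.40 ± 0.29 and the neuronal paralogue Tagln3 was at −2.12 ± 0.42, while vinculin and caldesmon (Cald1) rose by 1.91 and 1.90. Of the 12 SRF-related genes 4 were higher and 2 lower, led by Fhl1 at −4.20 ± 0.22 (adjusted p 1.31e-14) and Fhl2 at 2.30 ± 0.30. Tgfb1 rose by 4.30 ± 0.26, and 4 of the 9 TGF-beta genes were higher and 2 lower. Of the actins, Acta1, the skeletal form, rose by 0.73 and Actc1, the cardiac form, fell by 1.42, or by 0.83 without MYC replicate 6, which stood at 11.06. Neural stem and progenitor markers averaged 6.98 to 8.08 in HRAS+MYC arrays and 6.77 to 10.15 in MYC arrays, with 3 of 5 called lower. Of 6 fibroblast markers Col3a1 was higher by 1.43 and Pdgfra was at −1.98, the second not called without MYC replicate 6 (adjusted p 0.0584). Of 7 striated muscle markers Tnnt2 was higher by 0.66, and of 8 mural markers 1 was called higher; their part in the members' differences was not tested.

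Set against HRAS cultures, 4 of the 9 genes fell in HRAS+MYC cultures and none rose, against 13.0% of all genes called lower; the members' median difference was −0.47, against 0.05 for all genes. Acta2 fell by 1.36 ± 0.39, to 0.390 of the HRAS level (adjusted p 0.0117). All 7 HRAS+MYC arrays lay at or below 5.90, and the HRAS arrays spread on both sides of that level. Without HRAS replicate 4, the highest array, the difference was −0.84 and was not called (adjusted p 0.0650), nor was it in a fit of the 2 groups alone (adjusted p 0.0579). Cnn2 fell by 1.33 ± 0.34 (adjusted p 0.00504), Tpm1 by 0.89 ± 0.27 (adjusted p 0.0147) and Tpm2 by 0.87 ± 0.21 (adjusted p 0.00325), and for each the 2 groups overlapped. Cnn1, calponin 1, was at −0.25 ± 0.10 and did not pass (adjusted p 0.0790), was −0.11 without HRAS replicate 1 (adjusted p 0.360), and passed without HRAS replicate 2 (adjusted p 0.0373) or HRAS+MYC replicate 5 (adjusted p 0.0456). Of the 23 other contractile genes 8 were lower and none higher, among them Lpp at −1.71, the non-muscle myosins Myh10 at −1.48 (−0.96 without HRAS+MYC replicate 1) and Myh9 at −1.16, and Actn1 at −0.92. Of the SRF-related genes 5 were lower, Fhl1 by 2.86 and Mrtfa by 0.60 among them, and of the TGF-beta genes 1 was higher and 3 lower, Tgfb3 at −2.58 and Tgfbr2 at −1.78 among these. Mural markers averaged 5.40 to 5.68 in HRAS+MYC arrays and 5.61 to 6.07 in HRAS arrays. Fibroblast markers averaged 5.57 to 5.94 in HRAS+MYC arrays and 6.22 to 6.97 in HRAS arrays. Of each list 2 were called lower, and their part in the members' fall was not tested.

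**Figure D3:**
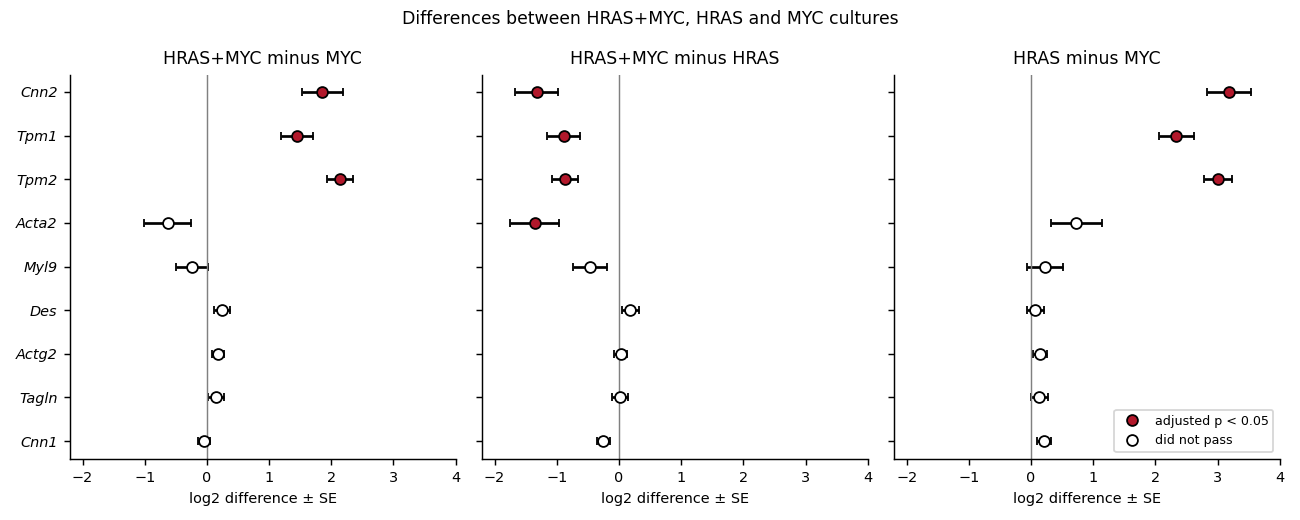
Log2 differences with standard errors of the 9 members in HRAS+MYC minus MYC, HRAS+MYC minus HRAS and HRAS minus MYC; filled points passed at adjusted p under 0.05. Cnn2, Tpm1 and Tpm2 are filled in all 3 panels, with HRAS+MYC between HRAS and MYC, and Acta2 is filled only in HRAS+MYC minus HRAS, at −1.36.

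The consecutive designs set secondary tumours, raised after a further oncogene was added to tumour cells, against tumours with HRAS or MYC alone. The added oncogene and the passage through a secondary tumour cannot be told apart here. When HRAS was added to MYC cells, 3 of the 9 genes rose against MYC cultures and none fell, against 9.83% of all genes called higher, and the members' median difference was 0.37 (all genes 0.03). Cnn2 was at 8.34 and 7.96 in MYC then HRAS arrays, above the MYC range of 5.79 to 6.91, a difference of 1.71 ± 0.48 (adjusted p 0.0110). Tpm1 was at 9.92 and 10.49 in MYC then HRAS arrays, above the MYC range of 7.96 to 9.90, a difference of 1.34 ± 0.37 (adjusted p 0.00993). Tpm2 was at 7.12 and 6.38 in MYC then HRAS arrays, above the MYC range of 5.07 to 5.48, a difference of 1.49 ± 0.30 (adjusted p 0.000544). Without MYC then HRAS replicate 1 the calls of Cnn2 (adjusted p 0.134) and Tpm2 (adjusted p 0.0559) were lost, and without replicate 2 those of Cnn2 (adjusted p 0.0630) and Tpm1 (adjusted p 0.209). Tpm1 was also lost in a fit of the 2 groups alone (adjusted p 0.152). Tagln, transgelin, was at 5.56 and 4.83 in MYC then HRAS arrays, against 4.31, 4.76 and 5.04 in MYC arrays, and its difference of 0.47 ± 0.18 did not pass (adjusted p 0.0702). It was 0.11 without MYC then HRAS replicate 1 (adjusted p 0.851) and 0.84 without replicate 2, where it passed (adjusted p 0.0152), as it did without MYC replicate 6 (adjusted p 0.0372) and with arrays centred on their medians (adjusted p 0.0377). Of the 23 other contractile genes 12 rose and none fell, with the LIM protein gene Pdlim7 at 2.05, Tagln2 at 2.01 and Actn1 at 1.80. Of the cell type markers, Col3a1 (2.47), Tnnt2 (0.76), Notch3 (0.70), Ptprc (0.67) and Myh6 (0.45) were called higher. Msi1 (−2.22) and Pax6 (−1.31) were called lower. The part of other cell types in the members' rise was not tested.

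When MYC was added to HRAS cells, 2 of the 9 genes fell against HRAS cultures and none rose, against 6.21% of all genes called lower, and the members' median difference was −0.21 (all genes 0.04). Tpm1 was at 9.95 and 8.98 in HRAS then MYC arrays, below all HRAS arrays (10.82 to 11.62), and fell by 1.74 ± 0.38 (adjusted p 0.00285). Without HRAS then MYC replicate 2 this call was lost (adjusted p 0.183). Cnn2 was at 8.54 and 7.59 in HRAS then MYC arrays, against 8.19 to 10.36 in HRAS arrays, where they overlapped, and fell by 1.56 ± 0.49 (adjusted p 0.0353). The Cnn2 call was lost without either HRAS then MYC array (adjusted p 0.0611 and 0.459), without HRAS replicate 1 (adjusted p 0.0571), 3 (adjusted p 0.0692) or 4 (adjusted p 0.0774) and in a fit of the 2 groups alone (adjusted p 0.148). Tpm2, at 8.06 and 7.75 in HRAS then MYC arrays, lay within the HRAS range of 7.59 to 8.79 (difference −0.35 ± 0.31, adjusted p 0.553). Acta2 was at 5.83 and 5.88 in HRAS then MYC arrays, and it differed by −1.21 ± 0.56 (adjusted p 0.180, not called), by −0.69 without HRAS replicate 4 (adjusted p 0.400) and by −1.59 without HRAS replicate 5, where it passed (adjusted p 0.0455). Of the 23 other contractile genes 8 fell and none rose, among them Lpp at −1.58, Myh9 at −1.48 and vinculin at −1.37. Without either HRAS then MYC array Lpp (adjusted p 0.169 and 0.174) and vinculin (adjusted p 0.0836 and 0.225) were not called, nor was Lpp without HRAS replicate 4 (adjusted p 0.0605). Fibroblast markers averaged 6.67 to 6.99 in HRAS then MYC arrays, against 6.22 to 6.97 in HRAS arrays, with 3 of 6 called higher, Col3a1 at 2.13 among them (adjusted p 0.0640 without HRAS then MYC replicate 2), and of 8 mural markers 1 was higher and 3 were lower. Their part in these differences was not tested.

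Compared with HRAS+MYC cultures, none of the 9 genes was called by limma in either order. For MYC then HRAS 0.110% of all genes were called in either direction, and 1 member, Tpm2, had an unadjusted p under 0.05 (difference −0.64 ± 0.29, adjusted p 0.627). For HRAS then MYC 12.1% of all genes were called, and 1 member, Tpm1, had an unadjusted p under 0.05 (−0.85 ± 0.36, adjusted p 0.144). Between HRAS then MYC and MYC then HRAS 3.28% of all genes and no member were called, and 2 members had an unadjusted p under 0.05. These were Tpm2 at 1.16 ± 0.37 (adjusted p 0.0852), whose groups of 2 did not overlap and which passed with arrays centred on their medians (adjusted p 0.0408), and Tagln at −0.48 ± 0.23 (adjusted p 0.355).

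The members called with Bmi1 beside HRAS were Des, Myl9 and Tpm2, of which Tpm2 had also been called in HRAS against MYC. In HRAS+Bmi1 cultures 3 of the 9 genes rose against HRAS and none fell, against 2.87% of all genes called higher and 3.04% called lower; the members' median difference was 0.22 and that of all genes −0.01. Des, the muscle intermediate filament desmin, was at 7.40 and 6.42 in HRAS+Bmi1 arrays, against 5.22, 5.16, 5.04, 5.27 and 5.04 in HRAS arrays. No array of the other 30 exceeded 5.67. The difference from HRAS was 1.77 ± 0.19 or 3.40-fold (adjusted p 8.85e-07). Myl9 was at 8.45 and 7.74 in HRAS+Bmi1 arrays, above all other 30 arrays, of which the highest, HRAS replicate 3, stood at 7.59. It differed from HRAS by 2.07 ± 0.39 or 4.18-fold (adjusted p 0.00152), but was not called without HRAS+Bmi1 replicate 1 (adjusted p 0.128) or in a fit of the 2 groups alone (adjusted p 0.116). Tpm2 was at 9.42 and 9.15 in HRAS+Bmi1 arrays, also above all other arrays, and differed from HRAS by 1.02 ± 0.31 (adjusted p 0.0447). The Tpm2 call was lost without HRAS+Bmi1 replicate 1 (adjusted p 0.453) or 2 (adjusted p 0.183), without HRAS replicate 1 (adjusted p 0.0880), 2 (adjusted p 0.0928) or 5 (adjusted p 0.0537), in a fit of the 2 groups alone (adjusted p 0.179) and with arrays centred on their medians (adjusted p 0.0538). Acta2 was at 8.31 and 6.96 in HRAS+Bmi1 arrays, inside the HRAS range of 5.57 to 9.15, and differed by 0.56 ± 0.56 (adjusted p 0.709), or by −0.11 without HRAS+Bmi1 replicate 1. Cnn2, Tpm1, Actg2, Tagln and Cnn1 differed by −0.26 to 0.22 and did not pass.

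Genes of striated muscle were higher in the same 2 arrays. Of 7 striated muscle markers 4 were called higher in HRAS+Bmi1 than in HRAS cultures and none lower, and the mean of the 7 was 6.44 to 6.51 in HRAS+Bmi1 arrays, against at most 5.94 in any other array. Myod1, the transcription factor that commits cells to skeletal muscle, was at 8.41 and 8.42 in HRAS+Bmi1 arrays, against 5.37 to 6.15 in the other 30 arrays, and differed from HRAS by 2.70 ± 0.15 (adjusted p 1.28e-12). Sarcomeric alpha-actinin (Actn2) differed by 1.30 ± 0.22, cardiac troponin T (Tnnt2) by 1.05 ± 0.19 and myogenin (Myog) by 0.75 ± 0.18. Without HRAS+Bmi1 replicate 1 the calls of Tnnt2 (adjusted p 0.0700) and Myog (adjusted p 0.0571) were lost, and Myog also without replicate 2 (adjusted p 0.224). Creatine kinase (Ckm) reached 5.95 in HRAS+Bmi1 arrays and 5.86 in HRAS arrays, and myoglobin (Mb) was at 5.59 to 5.64 in HRAS+Bmi1 arrays and 5.37 to 5.68 in HRAS arrays. Of the 3 further actins, Actc1 rose by 2.33 ± 0.59 (adjusted p 0.0165) and Acta1 by 1.34 ± 0.26 (adjusted p 0.00152). Actc1 was at 9.24 and 9.53 in HRAS+Bmi1 arrays, below MYC replicate 6 at 11.06, and its call was lost without either HRAS+Bmi1 array (adjusted p 0.169 and 0.197), as was that of Acta1 without replicate 1 (adjusted p 0.0697). The coding sequences of the muscle actins are closely alike, and signal shared between their probe sets was not tested. Of the 23 other contractile genes, Tagln3 rose by 2.33 and Actn1 fell by 1.03, and 21 did not pass. Neither call held without HRAS+Bmi1 replicate 1 (adjusted p 0.210 and 0.241) or 2 (adjusted p 0.238 and 0.194), nor that of Tagln3 without HRAS replicate 2 (adjusted p 0.0525) or that of Actn1 without HRAS replicate 4 (adjusted p 0.0554). Of the SRF-related genes only Mrtfa was called, at −0.805 ± 0.15 (adjusted p 0.00130), opposite in direction to the called members. Of the TGF-beta genes only Smad7, at −1.67 ± 0.39, and Tgfbr2, at −1.28 ± 0.32, were called. How far these calls rest on single arrays is not reported here. Of 8 mural markers none was higher and 1 was lower, and of 5 neural stem and progenitor markers 2 were higher. The part of other cell types in the members' rise was not tested.

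**Figure D4:**
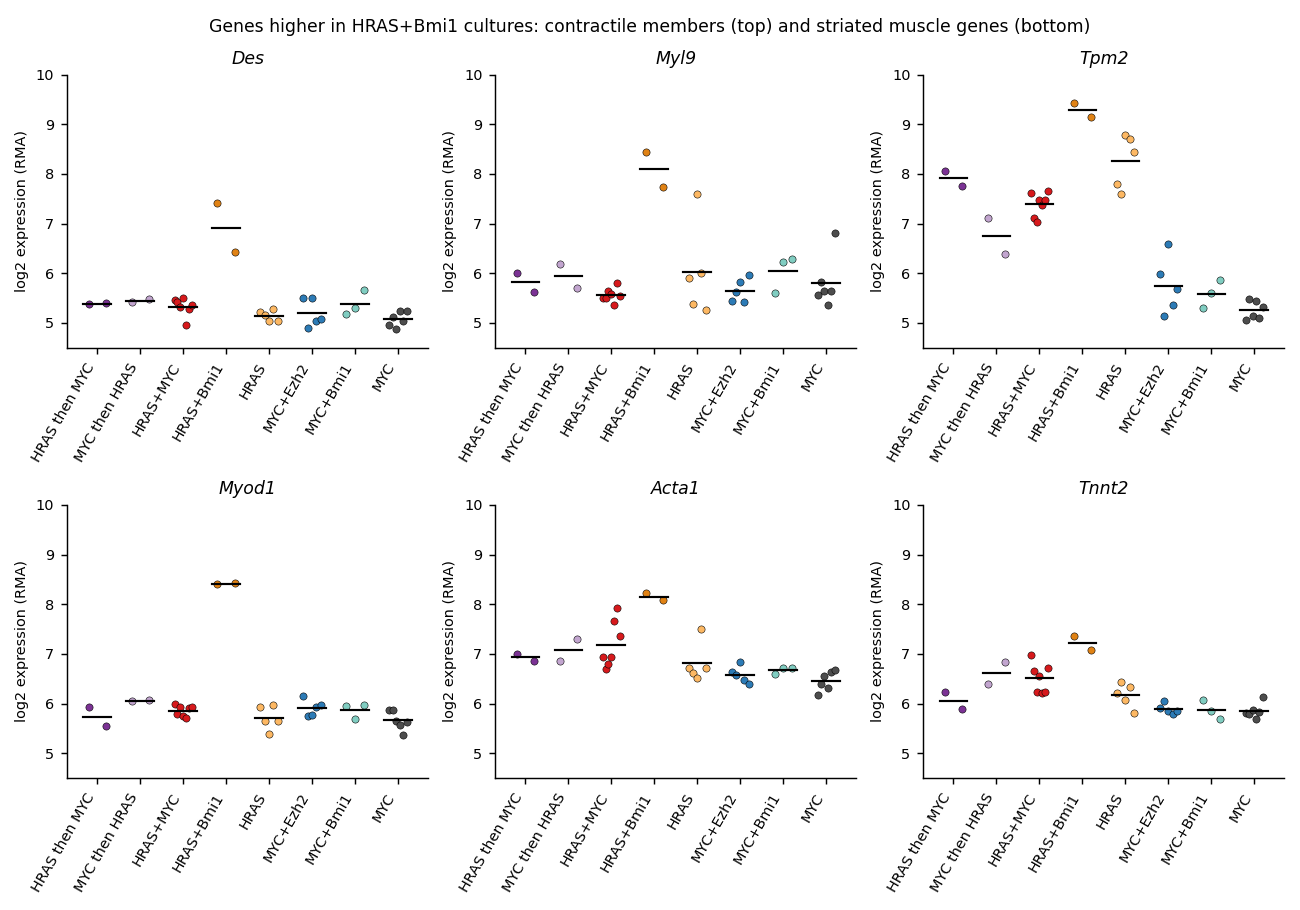
Log2 expression of Des, Myl9 and Tpm2 (top) and of the striated muscle genes Myod1, Acta1 and Tnnt2 (bottom) by group; points are arrays and bars are group means. The 2 HRAS+Bmi1 arrays are the highest of the 32 in every panel, and for Myod1 they stand at 8.41 and 8.42, against at most 6.15 elsewhere.

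Whether Bmi1 acted differently beside HRAS and beside MYC was tested as the difference of the 2 effects. Des was the 1 member called, against 1.33% of all genes called higher: the Bmi1 effect was 1.47 ± 0.25 larger in HRAS than in MYC cells (adjusted p 0.00123). Without HRAS+Bmi1 replicate 1 the difference of effects was 0.97 and was not called (adjusted p 0.0905). For Myl9 it was 1.84 ± 0.51 and did not pass (adjusted p 0.0535), although it passed without HRAS replicate 3 (adjusted p 0.000702), without MYC replicate 4 (adjusted p 0.0417) and without MYC replicates 4 and 5 together (adjusted p 0.0350). Myod1 differed by 2.49 ± 0.20 in the same direction (adjusted p 6.06e-09) and Actc1 by 3.67 ± 0.77 (adjusted p 0.00973), the second not called without either HRAS+Bmi1 array. Tagln3 at 3.12 ± 0.83, Actn2 at 1.24 ± 0.29 and Tnnt2 at 1.03 ± 0.24 were also called in this direction. Called in the opposite direction were Smad7 at −1.98 ± 0.51 (adjusted p 0.0333), Actn1 at −1.37 ± 0.36 (adjusted p 0.0384) and Mrtfa at −0.82 ± 0.20 (adjusted p 0.0243).

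Beside MYC, neither Polycomb gene moved a member past the threshold. In MYC+Bmi1 against MYC cultures limma called none of the 9, against 0.150% of all genes in either direction, and none had an unadjusted p under 0.05. The largest difference was −0.38 ± 0.32 for Tpm1 (adjusted p 0.690), which was 0.11 without MYC replicates 4 and 5. Cnn2 was at 5.32, 5.63 and 7.29 in MYC+Bmi1 arrays, of which 1 lay above the MYC range of 5.79 to 6.91 and 2 below it. In MYC+Ezh2 against MYC cultures limma again called none, against 0.246% of all genes, and 1 member had an unadjusted p under 0.05. This was Tpm2, at 5.98, 5.13, 6.59, 5.35 and 5.68 in MYC+Ezh2 arrays, against 5.07, 5.22 and 5.48 (lowest, median, highest) in MYC arrays, with 3 of the 5 above all MYC arrays (difference 0.49 ± 0.22, adjusted p 0.429).

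HRAS+MYC and HRAS+Bmi1 cultures, which differ in the partner given to HRAS, had the most members called of the 13 comparisons. Of the 9 genes 5 were lower in HRAS+MYC than in HRAS+Bmi1 and none higher, against 9.56% of all genes called lower; the members' median difference was −1.55, against 0.06 for all genes. HRAS+MYC arrays reached at most 5.81 for Myl9, against 8.45 and 7.74 in HRAS+Bmi1, and the difference was −2.53 ± 0.38 (adjusted p 2.27e-05). They reached at most 7.66 for Tpm2, against 9.42 and 9.15 in HRAS+Bmi1 (−1.89 ± 0.29, adjusted p 3.84e-05), and at most 5.50 for Des, against 7.40 and 6.42 in HRAS+Bmi1 (−1.59 ± 0.18, adjusted p 6.31e-07). Acta2 differed by −1.92 ± 0.54 (adjusted p 0.0127) and Cnn2 by −1.55 ± 0.47 (adjusted p 0.0220), also without overlap. Both were lost without HRAS+Bmi1 replicate 1 (differences −1.25 and −1.49), and Cnn2 also without replicate 2 (−1.60). Among the genes of the lists, Cald1 at 1.12 ± 0.32 and Smad7 at 1.89 ± 0.37 were called higher in HRAS+MYC. Others were called lower, among them Tagln3 at −2.76 ± 0.60 and Myod1 at −2.56 ± 0.14. The part of other cell types in the members' differences was not tested.

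By group mean, Acta2 stood in the order HRAS+Bmi1 (7.63), HRAS (7.07), MYC (6.34), MYC then HRAS (6.21), MYC+Bmi1 (6.07), MYC+Ezh2 (5.98), HRAS then MYC (5.86) and HRAS+MYC (5.71), and the arrays of every pair of neighbours overlapped. The genes with the pattern most like that of Acta2 over the 32 arrays, out of 18337 ranked by Pearson's r, were Gbp9 (r = 0.83), H2-Q5 (0.79), Herc6 (0.77), Ddx60 (0.77) and Ifit3 (0.77). Gbp9, Herc6, Ddx60 and Ifit3 are known as interferon-induced genes and H2-Q5 belongs to the class I histocompatibility genes. The arrays share 8 groups. Spearman's rank correlation was lower than r, at 0.45 for Gbp9, 0.44 for H2-Q5, 0.51 for Herc6, 0.24 for Ddx60 and 0.49 for Ifit3. Without the 2 arrays farthest from each gene's own median, r was 0.76 for Gbp9, 0.67 for H2-Q5, 0.66 for Herc6, 0.43 for Ddx60 and 0.65 for Ifit3. Gbp9 was at 5.91, 4.46, 6.37, 6.84 and 5.11 in HRAS replicates 1 to 5, so that the 3 HRAS arrays with high Acta2 were also those with the most Gbp9, and HRAS replicate 4 was highest for both. In HRAS+MYC against HRAS cultures Gbp9 was at −1.07 ± 0.23 (adjusted p 0.00108) and Ifit3 at −2.51 ± 0.41 (adjusted p 3.70e-05).

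**Figure D5:**
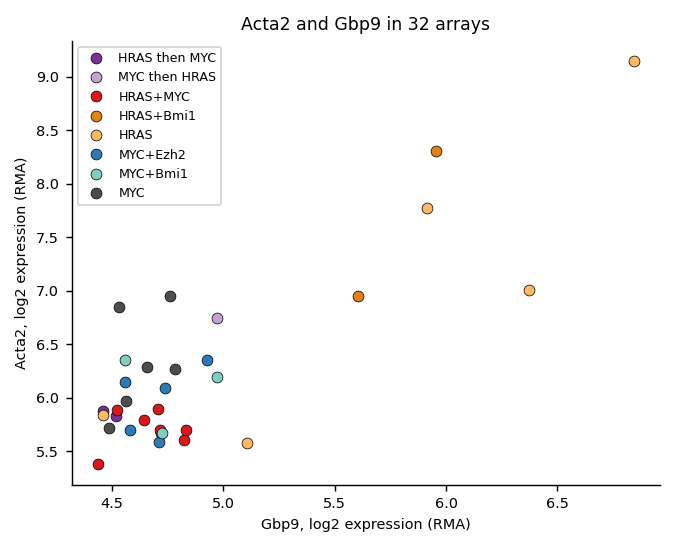
Acta2 against Gbp9, both as log2 expression, in the 32 arrays coloured by group; each point is an array. The 3 HRAS arrays with high Acta2 and both HRAS+Bmi1 arrays lie apart at the upper right, and the remaining arrays form a cloud with Gbp9 below 5.2.

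The genes most like Tagln were Agr2 (r = 0.73), Cela2a (0.71), Irx4 (0.67), Krt78 (0.66) and Tmem210 (0.65), and without the 2 arrays farthest from each gene's own median r lay between 0.51 and 0.76. Tagln itself ran from 4.31 to 5.56 over the 32 arrays, Actg2, enteric smooth muscle actin, from 4.57 to 5.45, and Cnn1, a marker of differentiated smooth muscle, from 4.84 to 5.85. None of these 3 was called by limma in any of the 13 comparisons, and 4 of their differences had an unadjusted p under 0.05 (Tagln in 2 comparisons, Actg2 and Cnn1 in 1 each). Detection calls were not used here, so whether these genes were expressed at all was not determined.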

How the data were processed

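RNA of 32 sphere cultures was hybridised to Affymetrix Mouse Gene 1.0 ST arrays. The deposited table holds log2 values per probe set. Per the submitters' processing notes the authors used RMA and Expression Console 1.0; the values, 1.44 to 14.52, show the log2 scale. RMA gives all arrays a like distribution, so an overall change of RNA would not be seen, and it draws weak signals to a floor, which understates their changes. Of 35557 probe sets, 21789 had 1 gene symbol, 1621 several and 12147 were not listed in the platform annotation. The probe set with the highest mean stood for each of 19938 genes (999 had several). Groups came from the sample titles. In R 4.3.3, limma 3.58.1 fitted 8 group means to all arrays, with eBayes and Benjamini-Hochberg adjustment over all genes, 2-sided, for 12 pairwise comparisons and 1 difference of effects. Groups of 2 arrays thus rest on a spread pooled over all groups. The fit was tested on simulated data. The number of arrays limits the precision.

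The members and the gene lists were chosen with earlier results of these data known, so their directions are not independent support. Beside the 9 members, the text gives counts for some lists in some comparisons. It names at most 4 called genes of a list with the largest difference. Lists not mentioned in a comparison can also hold called genes. The 5 genes most like Acta2 and the 5 most like Tagln are given too. Srf, Myocd, Myh11, Mylk, Lmod1, Ckm and Mb are named from the lists although not called. Tgfbr1 and Tagln3 are named in HRAS against MYC as the only genes of their lists called lower. Both choices were made after the values were seen. A few genes of these lists are not reported here. Same-numbered arrays of different groups had deviations correlated at −0.30 to 0.43 (median 0.01, 79 pairs), so the replicate numbers were not used as pairs. Alternatives were 2-group fits, the replicate number as a block, leaving out each array, leaving out MYC replicates 4 and 5, averaging probe sets, a minimum mean of 6, centring arrays on their medians, and a trended robust variance. Leaving out each array for the genes of the lists was added after seeing the data.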

Additional observations from a re-analysis of the deposited data

Results flagged for a closer look

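In 36 sets of 4 to 7 arrays of 1 member and group, 5 had a single array whose gap to its nearest neighbour was large against the range of the set by Dixon's test, and chance flags about 1 set in 20. Actg2 was at 4.57 in MYC replicate 4 and at 5.04 to 5.32 in the other MYC arrays. Cnn1 was at 5.85 in HRAS replicate 1 and at 5.03 to 5.22 in the other HRAS arrays, and it was at 4.84 in MYC replicate 6 and at 5.04 to 5.16 in the other MYC arrays. Myl9 was at 6.81 in MYC replicate 6 and at 5.36 to 5.83 in the other MYC arrays. Des was at 4.95 in HRAS+MYC replicate 5 and at 5.27 to 5.50 in the other HRAS+MYC arrays. The effect of Bmi1 on Des differed between HRAS and MYC cells by 1.47 (limma adjusted p 0.00123), the 1 member for which this difference of effects passed.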

How the results depend on the processing

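Of 24 member differences that were called, recomputed 388 times under the alternatives, 360 recomputations kept the call, 28 lost it and none changed sign. Of 93 that were not called, 14 of 1419 recomputations passed and 58 changed sign without passing. The calls of HRAS against MYC and of HRAS+MYC against MYC on Cnn2, Tpm1 and Tpm2 held in every alternative run. In fits of the 2 groups alone, members called were 1 for HRAS+Bmi1 against HRAS (Des) and 1 for HRAS then MYC against HRAS. With the replicate block, 1 member was called for HRAS then MYC against HRAS (Cnn2 lost, adjusted p 0.0870) and 2 for the difference of Bmi1 effects (Myl9 added, adjusted p 0.0377); the block changed no other member's call, and 9 of 32 arrays matched best an array of their own number. Without MYC replicates 4 and 5, the difference of Bmi1 effects called 2 members. A minimum mean of 6 kept 10947 genes and 4 members, and so called 1 for HRAS+Bmi1 against HRAS, 3 for HRAS+MYC against HRAS+Bmi1 and 0 for the difference of effects. Centring arrays on their medians called 1 (Tpm2) between HRAS then MYC and MYC then HRAS, and added Des for HRAS+MYC against MYC (adjusted p 0.0326). Leaving out 1 array at a time, members called ranged from 3 to 4 for HRAS against MYC, 3 to 5 for HRAS+MYC against HRAS, 1 to 3 for HRAS+Bmi1 against HRAS, 3 to 5 for HRAS+MYC against HRAS+Bmi1, 1 to 4 for MYC then HRAS against MYC, 0 to 3 for HRAS then MYC against HRAS and 0 to 2 for the difference of effects. Some counts over all genes moved by more than 1.5 times. In fits of the 2 groups alone they were 533 in place of 1178 for HRAS+Bmi1 against HRAS, 983 in place of 2495 for HRAS then MYC against HRAS, 2367 in place of 4074 for MYC then HRAS against MYC, 1 in place of 49 for MYC+Ezh2 against MYC and 1 in place of 30 for MYC+Bmi1 against MYC. Without MYC replicates 4 and 5 they were 202 for MYC+Ezh2, 245 for MYC+Bmi1 and 745 in place of 485 for the difference of effects; the block gave 9 for MYC+Ezh2. The minimum mean gave 32 for MYC+Ezh2, 19 for MYC+Bmi1 and 10 in place of 22 for MYC then HRAS against HRAS+MYC. Leaving out 1 array gave 199 to 1801 for HRAS+Bmi1 against HRAS, 1317 to 3380 (3424 with all) for HRAS+MYC against HRAS+Bmi1, 1900 to 4286 for MYC then HRAS against MYC, 544 to 2667 for HRAS then MYC against HRAS, 605 to 2444 (2405 with all) for HRAS then MYC against HRAS+MYC, 195 to 578 (653 with all) between the consecutive designs, 15 to 43 for MYC then HRAS against HRAS+MYC, 4 to 233 for MYC+Ezh2, 9 to 234 for MYC+Bmi1 and 98 to 1099 for the difference of effects. Except for the minimum mean, which tests fewer genes, and for settings that drop arrays, the cause of these changes was not tested. RMA gives no depth, and the signal over background was not used here.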

Other observations

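Acta2 has a close neighbour among the genes most like it. In RefSeq gene order, 4 protein-coding genes (Fas, Ch25h, Lipa and Ifit2) lie between Acta2 and Ifit3, and their Pearson's r with Acta2 over the 32 arrays, which share 8 groups, was 0.19 for Fas, 0.07 for Ch25h, 0.38 for Lipa and 0.63 for Ifit2. Further on, r was 0.69 for Ifit3b, 0.24 for Ifit1bl2, 0.72 for Ifit1 and −0.13 for Slc16a12. On the other side Stambpl1, the gene next to Acta2, had r = −0.02. These neighbours were chosen after the values were seen, and are given as a description.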
